A study of Mus musculus with 3 samples.

Results

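Heme and iron handling in healing mouse skin was followed through 9 of the 32285 genes in the count tables: *Hmox1*, *Blvra*, *Blvrb*, *Slc48a1*, *Slc40a1*, *Slc11a1*, *Fth1*, *Ftl1* and *Tfrc*. The genes were listed by name and matched by Ensembl identifier, and all 9 had counts in each of the 3 libraries. The study took dorsal skin wounds of male C57BL/6J mice, an inbred laboratory strain, on Days 3, 7 and 14, dissociated them and sequenced the RNA of single cells captured in droplets, to follow how wound cells and their genes change during repair. The mice were young adults, and the labels name no engineered allele and no drug, so the labels set the 3 groups apart by time alone. The methods describe full-thickness punch wounds, whereas the series text calls the injury incisional. Each day was 1 library of unsorted cells pooled from several wounds after red blood cells had been lysed, so a difference between days cannot be told apart from a difference between libraries, and unwounded skin was not analysed here.

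When red cells break down in a wound, macrophages take up their hemoglobin and release heme in the phagolysosome. Heme is carried to the cytosol and opened by heme oxygenase into biliverdin, carbon monoxide and iron, and biliverdin is reduced to bilirubin. The freed iron is stored in ferritin, a shell of heavy and light chains, or leaves the cell through ferroportin, while most cells take up iron through the transferrin receptor. Cells adjust several of these proteins through iron regulatory proteins, which bind a short RNA hairpin, the iron-responsive element. Such a hairpin in a 5′ UTR blocks translation when iron is scarce, and hairpins in the 3′ UTR of the transferrin receptor mRNA protect that mRNA from decay.

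The members lie on 7 chromosomes of the mouse genome (GRCm38). *Hmox1*, heme oxygenase 1, is at chr8:75093621-75100589. *Blvra* (chr2:127070665-127097084) and *Blvrb* (chr7:27447978-27466144) encode the biliverdin reductases. *Slc48a1* (chr15:97778520-97792692), also known as HRG1, carries heme out of the phagolysosome. *Slc40a1* (chr1:45908068-45926523) is ferroportin, the iron exporter. *Slc11a1* (chr1:74375195-74386062), also known as NRAMP1, is named for a carrier of divalent metal ions in the phagosome membrane. Counts of its mRNA do not show whether that carrier works in these mice. *Fth1* (chr19:9980598-9985098) and *Ftl1* (chr7:45457944-45459884) encode the ferritin heavy and light chains, and *Tfrc* (chr16:32608920-32632794) is the transferrin receptor. *Slc40a1* and *Ftl1* are on the minus strand and the others on the plus strand. A small gene, *Gm22133*, overlaps *Ftl1* on its strand, and a processed copy, *Ftl1-ps1*, held from 0.541 to 0.762% as many UMIs as *Ftl1*.

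The members that carry hairpin-like letters in their UTRs are shown because these hairpins act after transcription. For *Slc40a1*, *Fth1* and *Ftl1*, with the letters in the 5′ UTR, they act on translation, which counts of mRNA do not show, and for *Tfrc*, with the letters in the 3′ UTR, on the stability of the mRNA. The letters searched on the transcribed strand were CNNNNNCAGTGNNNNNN, with 5 paired bases on either side of the 6-base loop, G-T pairs allowed and the last base of the loop not G. They stood in 16 of 19907 annotated 5′ UTRs (0.0804%) and in 83 of 20500 3′ UTRs (0.405%). A single gene, *Tfrc*, had more than 1 match in its 3′ UTR (0.00488% of 20500). Each line gives 29 bases of GRCm38, 5′ to 3′, with the loop in capitals.
Slc40a1 5′ UTR, minus strand, chr1:45925465-45925493: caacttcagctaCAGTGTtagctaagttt
Fth1 5′ UTR, plus strand, chr19:9982732-9982760: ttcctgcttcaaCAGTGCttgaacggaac
Ftl1 5′ UTR, minus strand, chr7:45459779-45459807: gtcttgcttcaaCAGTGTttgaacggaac
Tfrc 3′ UTR, plus strand, chr16:32631219-32631247: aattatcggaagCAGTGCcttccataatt
Tfrc 3′ UTR, plus strand, chr16:32631598-32631626: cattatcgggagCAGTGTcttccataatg
Tfrc 3′ UTR, plus strand, chr16:32631663-32631691: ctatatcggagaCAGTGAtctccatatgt
Tfrc 3′ UTR, plus strand, chr16:32631710-32631738: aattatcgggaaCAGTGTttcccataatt
The UTRs of *Hmox1*, *Blvra*, *Blvrb*, *Slc48a1* and *Slc11a1* held none of these letters. A match is a description of the sequence and not evidence of binding.

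Counts of unique molecular identifiers (UMIs), tags that tell 1 captured mRNA from the next, were summed over the cells of a class in a library and given as CPM, UMIs relative to all UMIs of those cells on the usual CPM scale. Cells were assigned to classes by clustering without the members and by fixed marker genes, and a class is written "X-like" since it is an inference from transcripts. After filters, 4360, 19590 and 13510 cells with 35448593, 100611139 and 97271465 UMIs were kept on Days 3, 7 and 14, and the median cell held 3515.5, 3230 and 5884.5 UMIs. Macrophage-like cells numbered 2711, 9452 and 3223 and fibroblast-like cells 401, 6029 and 7351. Neutrophil-like cells numbered 865 and 1656 on Days 3 and 7, and the 21 cells of Day 14 were too few to use. T cell-like cells were those of cluster 30 alone, 68 on Day 14, led by *Cd3g*, *Trdc* and *Trdv4* among others. Cluster 19, with *Ctla4*, *Icos* and *Trac* among its leading genes, had 388 and 249 cells on Days 7 and 14. Its T cell and NK cell scores were close, so it was left unnamed and enters no class value. Values were given for sums of at least 50 cells, 17 in all. A single non-coding transcript, *Gm42418*, took 3.53%, 12.0% and 6.46% of UMIs, and it counts in the total behind every CPM. Pairs of libraries shared 43, 19 and 111 cell barcodes. Fibroblast-like cells of Day 3 were far deeper than the rest, with a median of 44367 UMIs against 10273 and 9649.

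No test could be run, since each day had 1 library. Intervals are 95% intervals for counting error only, exact Poisson for CPM, exact binomial for ratios and shares. A member was read as higher or lower between 2 sums only at a 2-fold limit, with at least 50 CPM in either sum and 10 UMIs over both, and the share of all genes past the same limit is given beside each count. A gene that met the 50 CPM minimum in a single sum could be read only because it was high there, so counts that hold such genes are descriptions, pathway lists included. Words such as rose and fell are kept for members past the limit.

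**Figure D1:**
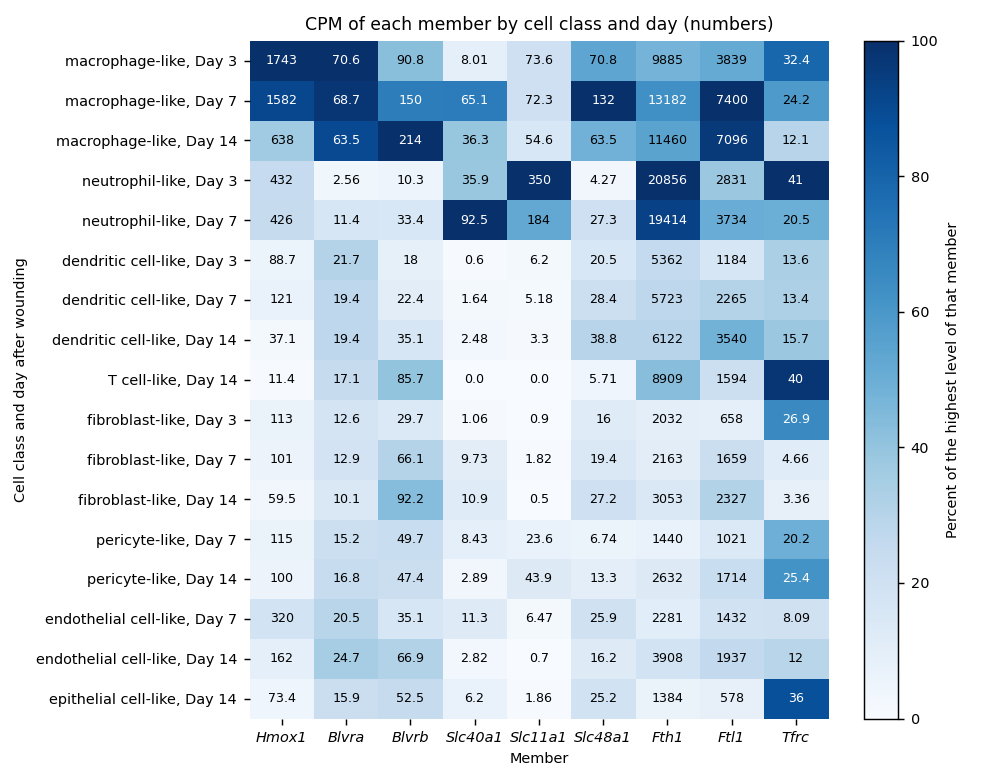
CPM of each member (columns) in each of the 17 class-by-day sums (rows), with the colour showing the percent of the highest level of that member. Hmox1, Blvra, Blvrb, Slc48a1 and Ftl1 were darkest in macrophage-like cells, Fth1, Slc11a1 and Slc40a1 in neutrophil-like cells, and Tfrc had no single class.

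The first comparison asked where in the wound these genes were expressed. Macrophage-like cells held the highest level of *Hmox1*, *Blvra*, *Blvrb*, *Slc48a1* and *Ftl1* on every day. Against fibroblast-like cells, 7 of 7 members that could be read were at least 2-fold higher on Day 3 (29.5% of all genes were), 8 of 8 on Day 7 (26.8%) and 7 of 7 on Day 14 (27%), and none was lower (25.4%, 22.3% and 22% of all genes were). Several of these members reached the 50 CPM minimum through macrophage-like cells alone, which favours a higher level there, namely *Blvra*, *Slc11a1* and *Slc48a1* on every day, *Blvrb* on Day 3 and *Slc40a1* on Day 7, and the counts are therefore given as a description. *Hmox1*, *Fth1* and *Ftl1* reached the minimum in both classes on every day, and *Blvrb* on Days 7 and 14. *Tfrc* was below the 50 CPM minimum on every day and is described apart.

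*Hmox1* differed among the classes by more than counting error. On Day 3 its level was 1743 CPM (1719 to 1766) in macrophage-like cells, 432 CPM (395 to 471) in neutrophil-like cells, 113 CPM (108 to 118) in fibroblast-like cells and 88.7 CPM (74.7 to 104) in dendritic cell-like cells, and no neighbouring intervals overlapped, although free RNA may be a part of these levels. The macrophage-like level was 15.4-fold (14.8 to 16.1) the fibroblast-like level on Day 3, 15.7-fold (15.3 to 16.1) on Day 7 and 10.7-fold (10.3 to 11.1) on Day 14. Endothelial cell-like cells, the lining of vessels, came next after macrophage-like and neutrophil-like cells, with 320 CPM (295 to 347) on Day 7 and then 162 CPM (142 to 184). On Day 7 dendritic cell-like, pericyte-like and fibroblast-like cells, at 121, 115 and 101 CPM, could not be told apart from their neighbours in that order. After thinning each cell to 500 UMIs, a *Hmox1* UMI was found in 31.8%, 29.8% and 22.4% of macrophage-like cells on Days 3, 7 and 14 and in 4.24%, 4.91% and 2.99% of fibroblast-like cells. Before thinning these shares were 71.7%, 60.5% and 55.4% in macrophage-like cells and 78.3%, 46.3% and 29.2% in fibroblast-like cells, so the raw share on Day 3 was higher in the deeper, lower-expressing class.

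Some of the counts in other classes may be free RNA, and macrophage markers were set beside them as a rough scale. A class may also express some of these markers itself, which the top of a range cannot tell apart from free RNA. In fibroblast-like cells the 9 macrophage markers stood at a median of 0.513%, 2.18% and 0.515% of their macrophage-like level on Days 3, 7 and 14, and none was at 0. Their range was 0.290 to 9.85%, 1.80 to 3.99% and 0.375 to 3.18%. *Hmox1* stood at 6.49%, 6.38% and 9.34% of its macrophage-like level in the same cells, within that range on Day 3 and above it on Days 7 and 14. *Slc11a1*, at 0.909, 1.82 and 0.542 CPM, stood at 1.24%, 2.52% and 0.993%, above the medians and within the range on each day. The part of free RNA in these values was not tested. In neutrophil-like cells the macrophage markers stood at 3.51% (1.67 to 44.1%) on Day 3 and 13.6% (9.58 to 25.7%) on Day 7.

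The genes of the biliverdin reductases were compared next. *Blvra* was 70.6, 68.7 and 63.5 CPM in macrophage-like cells and between 2.56 and 24.7 CPM in the other classes, and on Day 7 the 5 other classes from endothelial cell-like to neutrophil-like each overlapped the next. *Blvrb* was 90.8, 150 and 214 CPM in macrophage-like cells and 29.7, 66.1 and 92.2 CPM in fibroblast-like cells. Macrophage-like cells led fibroblast-like cells by only 3.06-, 2.27- and 2.32-fold for *Blvrb*, on Day 14 about as little as for *Slc48a1* at 2.33-fold. On Day 14 *Blvrb* was 85.7 CPM (48.0 to 141) in the 68 T cell-like cells, which overlapped the fibroblast-like level.

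The mRNA of the heme carrier gene *Slc48a1* was at 70.8, 132 and 63.5 CPM in macrophage-like cells, 4.44-, 6.79- and 2.33-fold the fibroblast-like levels of 16.0, 19.4 and 27.2 CPM. Dendritic cell-like cells had 20.5, 28.4 and 38.8 CPM. The lead of macrophage-like over fibroblast-like cells was therefore widest on Day 7.

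Neutrophil-like cells phagocytose and kill microbes early in a wound. *Slc11a1* was 350.5 CPM (317 to 386) on Day 3 and later 184 CPM (162 to 209), 4.76-fold (4.23 to 5.36) and 2.55-fold (2.22 to 2.91) the macrophage-like level. *Fth1* was 20856 and 19414 CPM, 2.11-fold (2.08 to 2.14) and 1.47-fold (1.45 to 1.49) the macrophage-like level. In all, 2 of 7 members were at least 2-fold higher than in macrophage-like cells on Day 3 (18.4% of all genes) and 4 were lower (46.7%), and on Day 7 1 of 8 was higher (18.8%) and 4 were lower (39.1%). The 4 lower members on both days were *Hmox1*, *Blvra*, *Blvrb* and *Slc48a1*, of which the last 3 reached the 50 CPM minimum through macrophage-like cells alone. With so few members these counts lay near the shares of all genes and are not read as a result about the members. The median of all genes was itself -0.82 and -0.59 on the log2 scale in these comparisons, so a gene near the median is already lower in neutrophil-like cells. Scaled by the median of ratios, 27% of all genes were higher and 34.1% lower on Day 3 and 27.6% and 21.3% on Day 7, when 3 members were higher, and the same 4 were lower. The lead of *Fth1* on Day 3 passed the limit in 10 of 14 alternatives, with a log2 ratio from 0.62 to 1.70.

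Within the lower members, *Hmox1* in neutrophil-like cells was 24.8% and 26.9% of the macrophage-like level on Days 3 and 7. That lay within the marker range of Day 3 and just above that of Day 7, and above the marker medians of 3.51% and 13.6%. The part of free RNA in these *Hmox1* levels was not tested. *Blvra*, *Blvrb* and *Slc48a1* were 2.56 CPM (0.529 to 7.49), 10.3 CPM (5.30 to 17.9) and 4.27 CPM (1.39 to 9.97) on Day 3, from 3, 12 and 5 UMIs, and 11.4, 33.4 and 27.3 CPM on Day 7. As a share of the macrophage-like level they were 3.63%, 11.3% and 6.03% on Day 3 and 16.5%, 22.2% and 20.7% on Day 7, all within the range of the macrophage markers and above their median on both days. The part of free RNA in these values was not tested either. *Slc40a1* moved from 35.9 CPM (25.9 to 48.5) to 92.5 CPM (76.8 to 110), above the macrophage-like levels of 8.01 and 65.1 CPM, with no overlap on either day. It rose by 2.58-fold (1.80 to 3.75), the only 1 of 5 members read that passed the limit between these days (10.2% of all genes were higher and 11.2% lower, or 17.3% and 4.82% with scaling without the 50 most abundant genes), and it met the 50 CPM minimum through Day 7 alone. With so few members this count is not read as a result about the members. In the neutrophil-like clusters *Slc40a1* was 33.6 and 70.4 CPM in cluster 16, a log2 ratio of 1.07 (-0.34 to 2.26), and 61.8 and 94.3 CPM in cluster 8, a log2 ratio of 0.61 (-0.56 to 2.09), so both intervals included 0 and cluster 8 was short of the limit. Cluster 16 held 87.6% of the class on Day 3 and cluster 8 held 95.2% on Day 7. *Slc11a1* was 363 and 362 CPM on Days 3 and 7 in cluster 16, and 216 and 169.7 CPM in cluster 8, with an interval of the ratio that included 0 in each.

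The iron importer *Tfrc* had no single leading class. On Day 3 it was 41.0 CPM (30.3 to 54.4) in neutrophil-like and 32.4 CPM (29.3 to 35.8) in macrophage-like cells, and these intervals overlapped. On Day 7 macrophage-like, neutrophil-like and pericyte-like cells stood at 24.2, 20.5 and 20.2 CPM, each overlapping the next. On Day 14 it was 40.0 CPM (16.1 to 82.4) in T cell-like cells from 7 UMIs, 36.0 CPM (30.8 to 41.7) in epithelial cell-like cells and 25.4 CPM (18.5 to 34.1) in pericyte-like cells. Macrophage-like cells had 12.1 CPM (10.3 to 14.2) and fibroblast-like cells 3.36 CPM (2.95 to 3.81) that day. Fibroblast-like cells were the lowest class on Days 7 and 14, although on Day 7 their interval overlapped that of endothelial cell-like cells. From T cell-like to endothelial cell-like every interval of Day 14 overlapped its neighbour. Pericyte-like cells, contractile cells around small vessels, stood out for another transporter, *Slc11a1*, at 23.6 CPM (15.7 to 34.1) at Day 7 and, by Day 14, 43.9 CPM (34.6 to 55.0). That was 32.6% and 80.5% of the macrophage-like level, where the macrophage markers in these cells reached at most 5.92% and 2.11%.

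**Figure D2:**
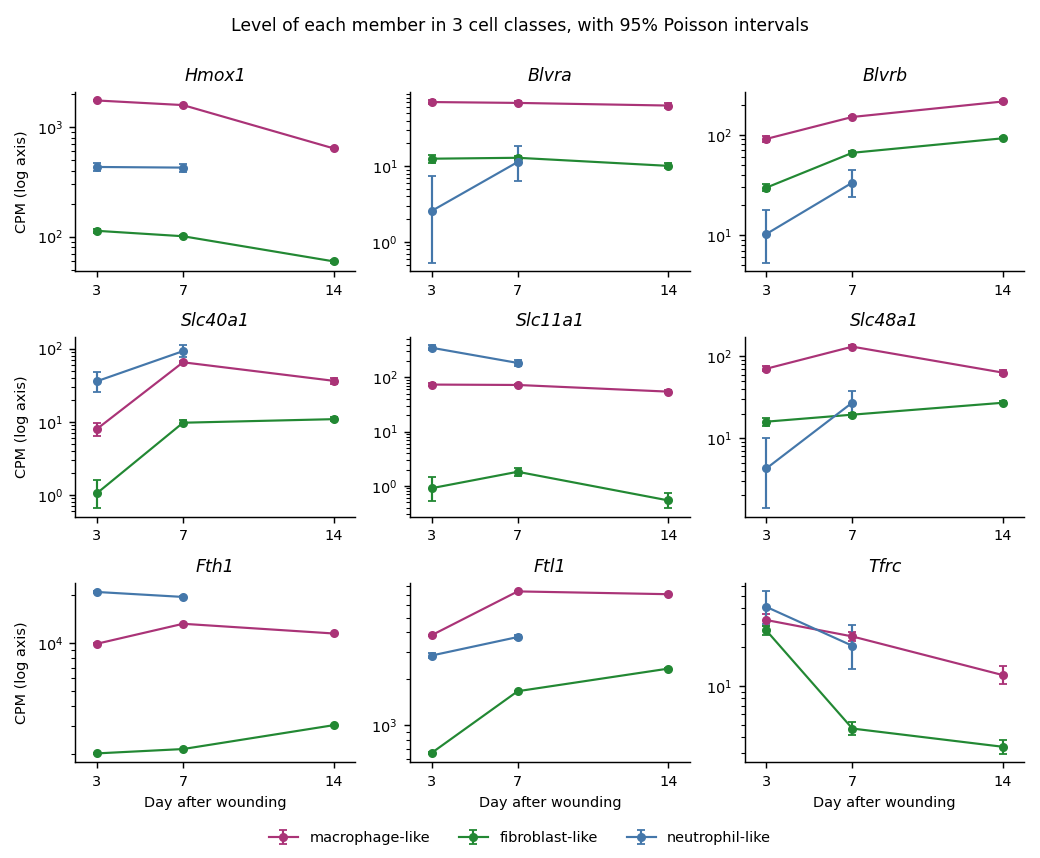
CPM on a log axis (vertical, scaled per panel) against day for each member in macrophage-like, fibroblast-like and neutrophil-like cells, with 95% Poisson intervals. In macrophage-like cells Hmox1 was 1743, 1582 and 638 CPM and Blvrb 90.8, 150 and 214 CPM, while Slc40a1 was lowest on Day 3 in all 3 classes.

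The second comparison asked how the members changed over time within macrophage-like cells. From Day 3 to Day 7, 1 of 8 members that could be read rose at least 2-fold and none fell (1.84% of all genes rose and 7.82% fell). This was the iron exporter *Slc40a1*, from 8.01 CPM (6.49 to 9.77) to 65.1 CPM (62.0 to 68.2), an 8.12-fold difference (6.62 to 10.1), and it met the 50 CPM minimum through Day 7 alone. Its ratio stayed between 2.55 and 3.50 on the log2 scale under every alternative tried. The median of all genes was -0.25 in this comparison. The share of *Gm42418* was the largest of the 3 on Day 7, and its part in that median was not tested. *Ftl1*, *Slc48a1* and *Blvrb* had ratios of 0.95 (0.93 to 0.96), 0.90 (0.79 to 1.01) and 0.73 (0.63 to 0.82) on the log2 scale, short of the limit. When CPM was computed without *Gm42418*, without the 50 most abundant genes or by the median of ratios, *Ftl1* and *Slc48a1* passed it and 3 members rose (by the median of ratios, 3.34% of all genes rose and 3.99% fell).

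The other members differed little between these days. *Fth1* was 9885 and 13182 CPM, a log2 ratio of 0.42 (0.41 to 0.42). *Hmox1*, *Blvra* and *Slc11a1* had log2 ratios of -0.14, -0.04 and -0.02, whose sign turned under the scalings without *Gm42418*, without the 50 most abundant genes and by the median of ratios, and for *Hmox1* and *Slc11a1* under 1 further alternative each. *Tfrc* was 32.4 CPM (29.3 to 35.8) and 24.2 CPM (22.4 to 26.1), below the minimum.

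From Day 7 to Day 14, 2 of 8 members fell at least 2-fold and none rose (2.92% of all genes fell and 2.89% rose, or 3.85% and 2.16% with scaling without *Gm42418*). *Hmox1* fell from 1582 CPM (1567 to 1597) to 638 CPM (624 to 652), 2.48-fold, a log2 ratio of -1.31 (-1.35 to -1.28) beside a median of 0.0031 over all genes. *Hmox1* also answers to cell stress, and a fixed list of dissociation and stress genes summed to 9172, 7095 and 8976 CPM in these cells on Days 3, 7 and 14, whose part in the result was not tested. *Slc48a1*, the heme carrier, fell from 132 CPM (128 to 136) to 63.5 CPM (59.1 to 68.0), a log2 ratio of -1.06 (-1.17 to -0.94). *Slc48a1* lay near the limit, and its log2 ratio was -0.998 with the full expected number of doublets removed, when *Hmox1* alone passed, and -0.95 with each library clustered alone, when *Slc40a1* passed in its place at -1.05. *Slc40a1* was 65.1 and 36.3 CPM, a log2 ratio of -0.84 (-0.99 to -0.69), and *Slc11a1* 72.3 and 54.6 CPM, a log2 ratio of -0.41 (-0.54 to -0.28). *Blvrb* ran the other way from *Hmox1*, at 150 and 214 CPM with a log2 ratio of 0.51 (0.44 to 0.58). Over the whole course from Day 3 to Day 14 *Hmox1* fell 2.73-fold and *Blvrb* rose 2.36-fold (2.20 to 2.53), 1 of 7 members in each direction (5.46% of all genes rose and 15.6% fell, or 9.33% and 8.5% by the median of ratios). With so few members these counts are not read as a result about the members. By the median of ratios and without the 50 most abundant genes *Ftl1* rose past the limit as well, at 1.18 and 1.04 on the log2 scale. The *Blvrb* ratio was 0.69 on the log2 scale, short of the limit, with each library clustered alone. The ferritin chains were nearly level from Day 7 to Day 14, with log2 ratios of -0.20 for *Fth1* and -0.06 for *Ftl1*.

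The clusters that made up the macrophage-like cells changed between days. Cluster 3, led by *Arg1*, *Mmp12* and *Spp1*, held 51.5% of them on Day 3, 25.2% on Day 7 and 2.08% on Day 14. Cluster 13, led by the monocyte gene *Chil3* and interferon-induced genes, held 33.7% on Day 3. Cluster 2, led by *Cd163*, *Folr2* and *Lyve1*, genes of resident tissue macrophages, held 4.94%, 21.9% and 55.7%. Cluster 4, led by *Cx3cr1* and *Ms4a7*, held 23.4% on Day 7, and cluster 14, led by *Retnla* and *Lyz1*, held 19.3% on Day 14. The members were left out of the clustering, so their levels by cluster could be compared.

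**Figure D3:**
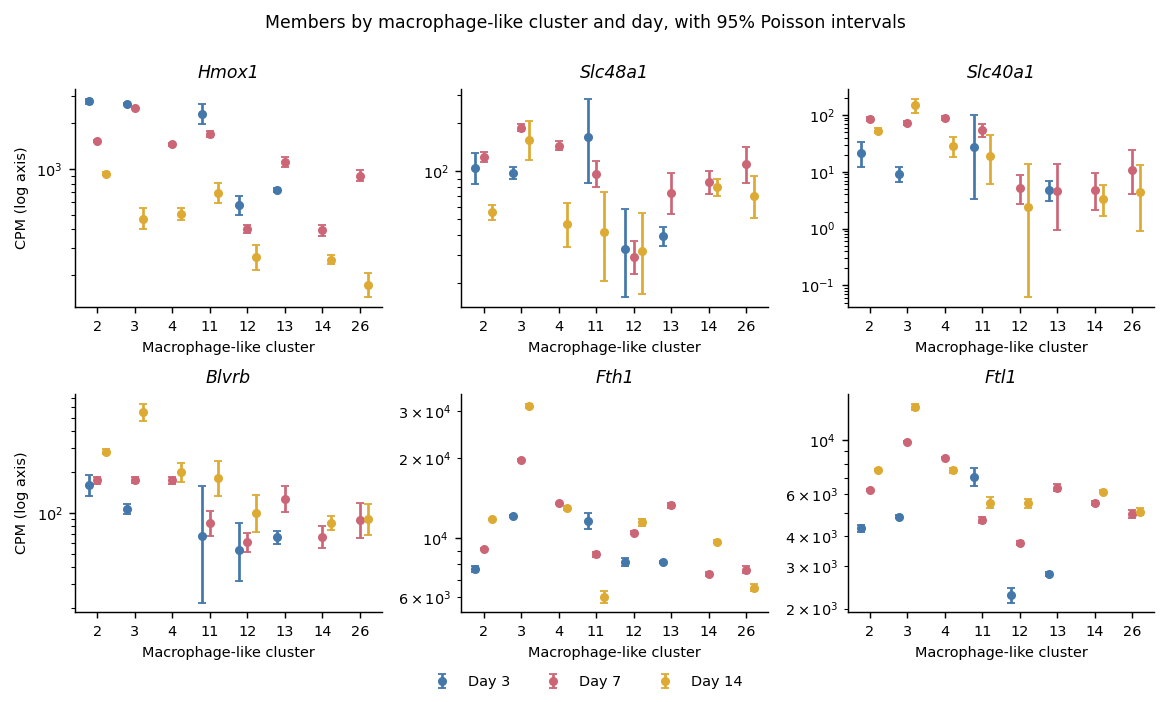
CPM on a log axis (vertical) of 6 members in each macrophage-like cluster with at least 50 cells that day (horizontal), coloured by day, with 95% Poisson intervals; a sum with no UMI is not drawn. Hmox1 of Day 14 lay below Hmox1 of Day 7 in 7 of 7 clusters, and Slc40a1 of Day 7 lay above 50 CPM in clusters 2, 3, 4 and 11 and below 11 CPM in clusters 12, 13, 14 and 26.

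*Hmox1* on Day 3 was 2783 CPM in cluster 2, 2659 CPM in cluster 3 and 575 CPM in the monocyte-like cluster 12, which was led by *Ly6c2*, a 4.84-fold span. On Day 7 it spanned 6.40-fold, from 393 CPM in cluster 14 to 2515 CPM in cluster 3. On Day 14 it spanned 5.39-fold, from 172 CPM in the cycling cluster 26 to 929 CPM in cluster 2. Within clusters too, *Hmox1* was lower on Day 14 than on Day 7, in 7 of 7 clusters, with every interval below 0 and log2 ratios from -2.42 to -0.62. In cluster 3 it was 2515 CPM (2479 to 2552) on Day 7 and 469 CPM (398 to 549) in the 67 cells of Day 14. From Day 3 to Day 7 it was lower in 4 of 5 clusters and higher in cluster 13, at 729 and 1113 CPM.

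*Slc40a1* had the widest span of the members among the clusters of Day 7. On that day it was 84.2, 72.8, 88.5 and 54.5 CPM in clusters 2, 3, 4 and 11, and 5.16, 4.67, 4.84 and 10.9 CPM in clusters 12, 13, 14 and 26, an 18.9-fold span, with no overlap between the intervals of these sets. On Day 3 cluster 2 had 21.0 CPM (12.0 to 34.1) from 16 UMIs and cluster 3 had 9.10 CPM (6.75 to 12.0) from 50 UMIs. The day-to-day rise was seen within clusters 2 and 3, whose intervals lay above 0, and cluster 13 stood at 4.70 and 4.67 CPM on both days. From Day 7 to Day 14 it was lower in 6 of 7 clusters, 3 of them with an interval below 0, and in cluster 3 it was higher, at 147 CPM (109 to 195) from 49 UMIs.

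*Blvrb* was higher on Day 14 than on Day 7 in 7 of 7 clusters, 5 of them with an interval above 0. On Day 14 it reached 283 CPM (270 to 296) in cluster 2 and 547 CPM (471 to 633) in cluster 3. *Slc48a1* was lower in 6 of 7 clusters, 4 of them with an interval below 0, but was 85.3 and 79.5 CPM in cluster 14 and 28.95 and 31.9 CPM in cluster 12. *Tfrc* was lower in 7 of 7 clusters, 3 of them with an interval below 0, and was highest in cluster 2 on Days 3 and 7, at 55.2 and 38.6 CPM. On Day 14 cluster 11 had 18.8 CPM (6.11 to 43.9) from 5 UMIs and cluster 2 had 17.6 CPM (14.5 to 21.1), and these intervals overlapped. *Fth1* was mixed, higher in 4 clusters and lower in 3, each with an interval clear of 0. *Ftl1* was higher in 6 of 7 clusters, 5 of them with an interval above 0, and lower in cluster 4 with an interval below 0, although over the class its log2 ratio was -0.06. For *Fth1* cluster 3 held its highest level on each day, at 12156, 19759 and 31462 CPM.

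Cluster 11 had a median of 880 UMIs per cell and listed *Hmox1* and *Cd36* among its leading genes. It held 97.7% of the hemoglobin UMIs of macrophage-like cells on Day 14, when 5 cells held 98.8% of them, whereas cluster 13 held most on Day 3 (70.8%) and cluster 4 on Day 7 (68.4%). Its *Hmox1* levels were 2299, 1699 and 693 CPM. Without it the class ratios changed little: *Hmox1* from Day 7 to Day 14 stayed at -1.31 and *Slc40a1* from Day 3 to Day 7 was 3.05 on the log2 scale.

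**Figure D4:**
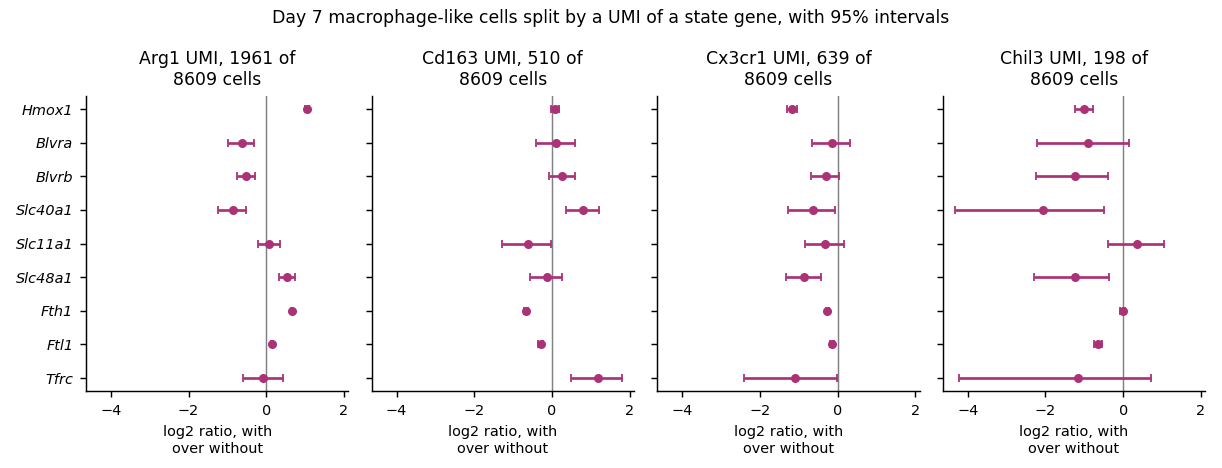
Log2 ratio of CPM (horizontal) of each member (vertical) in Day 7 macrophage-like cells with a UMI of Arg1, Cd163, Cx3cr1 or Chil3 over cells without one, after thinning to 1000 UMIs per cell, with 95% intervals. Hmox1 lay at 1.05 for Arg1, at 0.08 for Cd163, at -1.17 for Cx3cr1 and at -1.01 for Chil3, and Slc40a1 at -0.87 for Arg1 and at 0.81 for Cd163.

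Cells of 1 library share its depth and handling, so macrophage-like cells were also split within each library by a single UMI of a state gene, after thinning to 1000 UMIs. The split is coarse, since a cell without a UMI may still express the gene. With *Arg1*, an arginase of repair-phase macrophages, *Hmox1* was 2711 CPM in 1143 cells with a UMI and 1447 CPM in 1345 cells without on Day 3, a log2 ratio of 0.91 (0.82 to 0.99). On Day 7 it was 2588 CPM in 1961 cells and 1250 CPM in 6648 cells, a log2 ratio of 1.05 (1.00 to 1.10). *Slc48a1* had the same sign, at 0.98 (0.51 to 1.46) and 0.54 (0.34 to 0.73), as did *Fth1*, at 0.40 (0.36 to 0.43) and 0.65 (0.63 to 0.67). On Day 7 the exporter and the reductases had the opposite sign, with -0.87 (-1.25 to -0.51) for *Slc40a1*, -0.64 (-0.98 to -0.31) for *Blvra* and -0.53 (-0.76 to -0.30) for *Blvrb*. That day cluster 3, led by *Arg1*, was above the class for *Slc40a1*, at 72.8 and 65.1 CPM, and for *Blvrb*, at 175 and 150 CPM, unlike the split by *Arg1*, and below it for *Blvra*, at 65.2 and 68.7 CPM, like the split.

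With *Cd163*, the hemoglobin-haptoglobin receptor, several signs on Day 7 were opposite to those for *Arg1*. *Slc40a1* was 0.81 (0.37 to 1.22) and *Tfrc* 1.18 (0.50 to 1.80), *Fth1* was -0.67 (-0.72 to -0.63), and *Hmox1* was 0.08 (-0.03 to 0.18). On Day 14 *Hmox1* was 1.42 (1.25 to 1.59) in the 200 cells with a *Cd163* UMI. With *Cx3cr1*, a chemokine receptor, *Hmox1* was lower on each day, at -1.45 (-1.72 to -1.20), -1.17 (-1.31 to -1.04) and -0.79 (-1.16 to -0.44). Cluster 4, led by *Cx3cr1*, lay below the class too, but by less than in the split. Its *Hmox1* level was 1448 CPM on Day 7, beside 1582 CPM over the class, and 503 CPM on Day 14, beside 638 CPM. With *Chil3*, which marks recent monocyte descendants, *Hmox1* was -0.83 (-0.98 to -0.69) on Day 3 and -1.01 (-1.24 to -0.78) on Day 7, and *Slc40a1* was -2.06 (-4.34 to -0.50) on Day 7. A split by the cycling genes *Mki67* or *Top2a* gave ratios for *Hmox1* of -0.20 (-0.35 to -0.05) on Day 7 and -0.29 (-0.61 to 0.02) on Day 14.

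The third comparison followed fibroblast-like cells, the matrix-making cells of the wound. From Day 3 to Day 7, 2 of 4 members that could be read rose at least 2-fold and none fell (5.72% of all genes rose and 11.1% fell, with a median of -0.27, or 8.83% and 6.06% by the median of ratios). *Ftl1* rose from 658 CPM (647 to 669) to 1659 CPM (1649 to 1669), 2.52-fold (2.48 to 2.57). *Blvrb* rose from 29.7 CPM (27.3 to 32.2) to 66.1 CPM (64.1 to 68.1), 2.22-fold (2.04 to 2.43), and met the 50 CPM minimum through Day 7 alone. *Fth1* stood at 2032 and 2163 CPM, so the ferritin chains parted. *Hmox1* was 113 and 101 CPM, with a log2 ratio of -0.16 whose sign turned under 4 alternatives, among them the scalings without the 50 most abundant genes and by the median of ratios.

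Below the 50 CPM minimum, the iron importer and exporter showed the widest ratios. *Tfrc* over the 3 days was 26.9 CPM (24.7 to 29.3), 4.66 CPM (4.15 to 5.22) and 3.36 CPM (2.95 to 3.81), from 533, 299 and 242 UMIs. The Day 3 level was 5.78-fold that of Day 7, and the log2 ratio stayed between -2.55 and -2.26 under every alternative. *Slc40a1* over the same days was 1.06 CPM (0.657 to 1.62), 9.73 CPM (8.98 to 10.5) and 10.9 CPM (10.1 to 11.7), from 21, 624 and 783 UMIs. Its level in fibroblast-like cells was 13.2%, 14.9% and 29.9% of the macrophage-like level, against macrophage-marker maxima of 9.85%, 3.99% and 3.18%.

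The fibroblast-like cells of Day 3 came mostly from cluster 18 (85.8%), led by *Cxcl5*, *Saa3* and *Serpinb2*, which held 7.00% of the class on Day 7. Within this cluster *Ftl1* was 656 and 1580 CPM, a log2 ratio of 1.27, and *Blvrb* 29.9 and 55.8 CPM, a log2 ratio of 0.90. *Tfrc* was 28.0 and 10.6 CPM there, a log2 ratio of -1.40, smaller than over the whole class. *Slc40a1* was 0.958 and 2.09 CPM in cluster 18, from 17 and 12 UMIs, a log2 ratio of 1.12 with an interval that included 0 (-0.07 to 2.28), beside 3.20 over the class. On Day 7 its level ran from 2.09 CPM in cluster 18 to 18.8 CPM in cluster 6. The *Tfrc* level of Day 7 was 3.65 to 10.6 CPM across 6 of the 7 clusters of that day, with cluster 18 at the top, and 17.5 CPM (2.12 to 63.2) in cluster 17 from 2 UMIs. Cluster 17 kept the fibroblast-like name through 6 markers, but none of these was among its leading genes, which were *Slc26a7*, *Wif1*, *Pappa2* and *Lef1*. Its fibroblast markers summed to 6890 CPM on Day 7 and 10186 CPM on Day 14, against 83220 to 136492 CPM in the other clusters of Day 7, so it is a doubtful member of the class. Without it, the counts of members past the limit in fibroblast-like cells were the same, and the log2 ratio of *Tfrc* from Day 7 to Day 14 was -0.74 in place of -0.47.

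From Day 7 to Day 14, 0 of 4 members passed the limit (3.41% of all genes rose and 3.91% fell). *Hmox1* was 101 and 59.5 CPM, a log2 ratio of -0.76 (-0.82 to -0.71), and was lower in 6 of 6 clusters, cluster 17 among them, with every interval below 0. *Fth1*, at 0.50 (0.49 to 0.51), and *Ftl1*, at 0.49 (0.48 to 0.50), were higher in 6 of 6 clusters with every interval above 0. *Blvrb*, at 0.48 (0.42 to 0.54), was higher in 6 of 6 clusters, 3 of them with an interval above 0. Over the whole course from Day 3 to Day 14, *Ftl1* rose by 1.82 (1.80 to 1.85) and *Blvrb* by 1.63 (1.51 to 1.76) on the log2 scale, 2 of 4 members (8.87% of all genes rose and 22.4% fell, or 15.7% and 12.7% by the median of ratios). *Blvrb* met the 50 CPM minimum through Day 14 alone in that comparison. The clusters behind the class differed between Days 7 and 14 too, with clusters 7, 6 and 5 holding 29.7%, 28.98% and 20.5% on Day 7 and clusters 1, 10 and 5 holding 50.4%, 18.6% and 15.6% on Day 14.

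**Figure D5:**
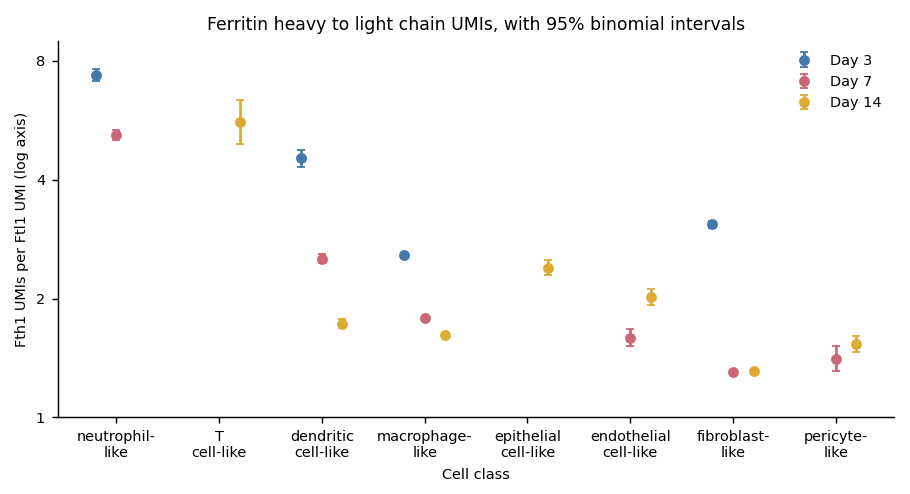
Fth1 UMIs per Ftl1 UMI (vertical, log axis) by cell class (horizontal) and day (colour), with 95% binomial intervals. Neutrophil-like cells had the highest ratio on Days 3 and 7, at 7.37 and 5.20, and T cell-like cells, cluster 30 alone, stood at 5.59 on Day 14. The ratio of Day 3 was the highest of the days in each of the 4 classes that had one. Within both neutrophil-like clusters, whose mix changed, the ratio was higher on Day 7 than on Day 3. Macrophage-like cluster 11 had the same sign with overlapping intervals.

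The heavy chain oxidises iron for storage and the light chain helps to build the mineral core, so the ratio of their UMIs was followed as well. Each UMI marks the 3′ end of 1 molecule and needs no length correction, but capture may differ between the genes, so the ratio was compared between classes and days and not read as a ratio of molecules. It was 7.37 (7.10 to 7.64) and 5.20 (5.04 to 5.36) in neutrophil-like cells on Days 3 and 7. Within the neutrophil-like clusters it was higher on Day 7 in both, at 7.93 (7.63 to 8.25) and 9.70 (8.59 to 10.98) in cluster 16 and at 3.59 (3.22 to 3.998) and 4.92 (4.76 to 5.07) in cluster 8, and the class passed from mostly cluster 16 to mostly cluster 8. In dendritic cell-like cells it was 4.53, 2.53 and 1.73 on Days 3, 7 and 14, in fibroblast-like cells 3.09, 1.30 and 1.31, and in macrophage-like cells 2.57, 1.78 and 1.61. From Day 3 to Day 7 it was lower in macrophage-like clusters 2, 3, 12 and 13 and stood at 1.65 (1.48 to 1.84) and 1.86 (1.80 to 1.93) in cluster 11, with overlapping intervals. Between Days 7 and 14 the macrophage-like clusters did not all share the direction of the class. The ratio was higher on Day 14 in clusters 2 (1.47 and 1.56), 3 (2.002 and 2.28), 4 (1.60 and 1.74) and 14 (1.34 and 1.59) and lower in clusters 11 (1.86 and 1.09), 12 (2.79 and 2.10) and 26 (1.54 and 1.29), while the mix of clusters changed. Among fibroblast-like clusters it was 1.87 and 1.29 in cluster 1 and 1.06 and 1.16 in cluster 6. Endothelial cell-like cells went the other way from Day 7 to Day 14, at 1.59 (1.52 to 1.67) and 2.02 (1.93 to 2.11), although their median over cells was 1.42 and 1.27. In cluster 24, which held 77.4% and 79.4% of this class, it was lower on Day 14, at 1.37 (1.29 to 1.46) and 1.11 (1.03 to 1.19), and cluster 29 had too few cells on Day 14 to be read. Pericyte-like cells were at 1.41 (1.31 to 1.52) and 1.54 (1.47 to 1.61), epithelial cell-like cells at 2.39 and T cell-like cells at 5.59 on Day 14. That T cell-like value is of cluster 30 alone. In the unnamed cluster 19, with T cell and NK cell markers, the ratio was 2.18 (2.01 to 2.35) on Day 7 and 2.29 (2.11 to 2.49) on Day 14. Both ferritin genes together made up 0.732%, 0.864% and 0.701% of all UMIs on Days 3, 7 and 14.

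Of the other classes, dendritic cell-like cells, which present antigen, showed a *Hmox1* fall from Day 7 to Day 14, from 121 CPM (110 to 132) to 37.1 CPM (29.9 to 45.6), 1 of 3 members read (3.37% of all genes rose and 6.26% fell, or 2.1% and 9.18% without *Gm42418*), after 0 of 3 from Day 3 to Day 7 (2.16% rose and 11.8% fell, or 4.97% and 5.37% by the median of ratios, when 1 member rose). Their *Ftl1* level was 1184, 2265 and 3540 CPM and rose past the limit from Day 3 to Day 14, while *Hmox1* fell, 1 of 3 members read in each direction (7.76% of all genes rose and 25% fell, or 16.5% and 12.6% by the median of ratios, when *Hmox1* fell short of the limit). *Hmox1* met the 50 CPM minimum through Day 7 alone against Day 14, and through Day 3 alone over the whole course. With so few members these counts are not read as a result about the members. *Fth1* was 5362, 5723 and 6122 CPM. In the same cells *Hmox1* was 5.09%, 7.62% and 5.82% of the macrophage-like level, within the range of the macrophage markers on Days 3, 7 and 14, and the part of free RNA in it was not tested. In endothelial cell-like cells 0 of 4 members passed the limit from Day 7 to Day 14 (6.37% of all genes rose and 5.53% fell, or 5.05% and 6.94% without *Gm42418*, when 1 member fell), and in pericyte-like cells 0 of 3 (9.92% rose and 8.67% fell).

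The remaining genes of the pathway were read from lists of their own. For macrophage-like cells the background of these lists is the share of all genes given above, 1.84% that rose and 7.82% that fell from Day 3 to Day 7, and 2.89% and 2.92% from Day 7 to Day 14. In fibroblast-like cells it is 5.72% that rose and 11.1% that fell from Day 3 to Day 7, and 3.41% and 3.91% from Day 7 to Day 14. The lists were read with CPM of all UMIs alone. From Day 3 to Day 7 the median log2 ratio of all genes was -0.25 in macrophage-like and -0.27 in fibroblast-like cells. By the median of ratios 3.34% and 8.83% of all genes rose and 3.99% and 6.06% fell in these classes. Whether list genes near the 2-fold limit pass it under that scaling is not given here. Of 8 genes of heme uptake, transport and scavenging, 4 could be read in macrophage-like cells from Day 3 to Day 7. *Cd163* rose from 34.7 to 82.6 CPM, a log2 ratio of 1.25 (1.10 to 1.41). *Hp*, haptoglobin, fell from 51.8 to 23.7 CPM, a log2 ratio of -1.13 (-1.29 to -0.97), beside 277 and 326 CPM in neutrophil-like cells, and the part of free RNA in this was not tested. *Hmox2*, the constitutive heme oxygenase, was 91.1, 91.9 and 97.1 CPM in macrophage-like cells on Days 3, 7 and 14. *Spic*, a heme-responsive factor of red pulp macrophages, was 5.12, 15.3 and 17.01 CPM in these cells.

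Of 16 genes of iron uptake and movement, 5 could be read in macrophage-like cells from Day 3 to Day 7 and 5 from Day 7 to Day 14. *Trf*, transferrin, rose from 177 to 366 CPM and *Slc25a28*, a mitochondrial iron carrier, fell from 97.4 to 46.6 CPM from Day 3 to Day 7. *Slc11a2*, the endosomal iron transporter DMT1, rose from 27.7 to 60.2 CPM from Day 7 to Day 14. In fibroblast-like cells 1 of 4 rose and 2 fell from Day 3 to Day 7 (5.72% of all genes rose and 11.1% fell). *Slc39a14*, a zinc and iron importer, fell from 465 to 153 CPM and then to 67.7 CPM on Day 14, and *Steap4*, a metalloreductase, fell from 175 to 49.7 CPM. *Steap3*, another metalloreductase, rose from 31.9 to 64.5 CPM.

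Of 8 genes of iron sensing and ferritin turnover, 4 could be read in macrophage-like cells. *Fbxl5*, which targets an iron regulatory protein for decay, fell from 247 to 113 CPM from Day 3 to Day 7, a log2 ratio of -1.12 (-1.20 to -1.05), and stood at 64.3 CPM on Day 14. *Pcbp1*, an iron chaperone for ferritin, was 708, 373 and 291 CPM there and fell past the limit in fibroblast-like cells, from 596 to 265 CPM. *Ncoa4*, the receptor that delivers ferritin to the lysosome, was 57.0, 80.0 and 64.7 CPM in macrophage-like cells. Of 9 heme synthesis genes, *Cpox* fell in fibroblast-like cells from 102 to 23.2 CPM from Day 3 to Day 7, and none of the genes could be read in macrophage-like cells in that interval.

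Of 7 regulators, *Maff* fell from 70.8 to 26.7 CPM in macrophage-like cells and then rose to 54.0 CPM, and *Mafk* rose from 38.1 to 78.6 CPM from Day 7 to Day 14. Both encode small Maf proteins, partners of NRF2 and BACH1. *Nfe2l2*, which encodes the activator NRF2, was 463, 336 and 546 CPM and *Bach1*, which encodes the heme-sensitive repressor, 398, 258 and 396 CPM, and neither passed the limit in macrophage-like cells between Days 3 and 7 or Days 7 and 14. Among 9 oxidant response targets *Gclm*, a subunit of the enzyme that starts glutathione synthesis, rose from 48.3 to 102 CPM and fell to 35.4 CPM. How many regulators and oxidant targets could be read is not given here, so the genes named do not stand for their lists. *Mt1*, a metallothionein, rose in the same cells from 755 to 1979 CPM from Day 7 to Day 14, where *Hmox1* fell. In fibroblast-like cells *Mt1* and *Mt2* fell from Day 3 to Day 7, from 5238 to 2279 CPM and from 5170 to 1428 CPM.

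Red cells had been lysed before capture, and hemoglobin UMIs were rare. A hemoglobin UMI was found in 14, 91 and 35 macrophage-like cells, 0.516%, 0.963% and 1.09% of the class on Days 3, 7 and 14. The 5 highest cells held 62.5%, 91.2% and 98.8% of the 24, 1404 and 2477 hemoglobin UMIs. Members could not be compared between cells with and without a hemoglobin UMI, because too few cells were left after thinning.

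Likeness between patterns was described by Pearson's r of log2(CPM + 1) over the 17 class-by-day sums among 6608 genes. The sums share libraries and depth, so r is a description with no test. *Hmox1* was most like *Mpp1* (0.97), *Rnf128* (0.93) and *Tnfsf13* (0.91), and *Blvra* most like *Snx2* (0.98). *Slc40a1* was most like *Fgd4* and *Osgin1* (0.82 each), *Slc48a1* most like *Daglb* (0.90), and *Slc11a1* most like *Slc25a37*, the mitochondrial iron importer mitoferrin 1 (0.92). *Fth1* was most like *Ninj1* (0.93), *Ftl1* most like its processed copy *Ftl1-ps1* (0.93), which may share reads with it, and *Tfrc* most like *Lin7c* (0.80). Among the members themselves r ran from -0.22 for *Slc48a1* and *Tfrc* to 0.78 for *Fth1* and *Ftl1* and for *Blvra* and *Slc48a1*.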

How the data were processed

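Dissociated wound tissue of Days 3, 7 and 14 was profiled by droplet-based 3′ single-cell RNA sequencing, with 1 library per day. The authors deposited filtered matrices of raw UMI counts, not normalized, made with Cell Ranger 6.0.0 against mm10 per the submitters' processing notes, and the annotation release was not given in the sources used here. Every column of the 3 tables belonged to 1 of the 3 samples. Cells with at least 500 UMIs, at least 200 genes and at most 10% mitochondrial UMIs were kept, 4452, 21568 and 14472 of 5158, 22924 and 16611 barcodes. Doublets were scored against simulated pairs over 50 neighbours, and 92, 1978 and 962 cells were removed, 0.5 of the expected rate of 0.8% per 1000 barcodes. The libraries were clustered together (Leiden, resolution 1, 2000 variable genes, 30 components, 15 neighbours) after leaving out 285 genes, the members among them, and the 32 clusters were named from at least 3 fixed markers. A cluster kept no name where a second class scored close to the first, or where its cells were shallow and no marker of its class was among its leading genes, as in cluster 15, the largest unnamed cluster. Depth differed between classes, so shares of cells were compared after thinning.

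UMIs were summed per class and day, since cells are not replicates. CPM has exact Poisson intervals, and ratios and shares have exact binomial ones. A separate floor of 3 counts was set, which lies below the upper end of the Poisson interval of a count of 0. Without replicate libraries there was no test, and intervals and limits cover counting error only. Genes were named as follows: all members, the pathway genes past the 2-fold limit from fixed lists, and the genes most like each member in pattern, which for *Blvrb* are not reported here. The exceptions, such as *Hmox2*, *Ncoa4*, *Spic*, *Nfe2l2* and *Bach1*, were named after their values were seen. The members and lists were chosen with earlier results of these data known, so no pattern here is independent support for another. Scripts were tested on simulated counts. UTR sequences came from the mouse genome GRCm38 and its gene annotation. Alternatives covered the scaling, filters, fold limit, doublet removal, clustering and thinning. Python 3.11.15, numpy 2.4.6, scipy 1.17.1, pandas 2.3.3, igraph 0.11.9 and leidenalg 0.10.2 were used.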

Additional observations from a re-analysis of the deposited data

Results flagged for a closer look

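The log2 ratios of the ferritin chains from Day 7 to Day 14 had opposite signs in macrophage-like and fibroblast-like cells, which is what set them apart for a closer look. The log2 ratio of *Fth1* was -0.20 in macrophage-like cells and 0.50 in fibroblast-like cells, a difference of -0.70. For *Ftl1* it was -0.06 and 0.49, a difference of -0.55. With 1 library per day the difference was not tested, and none of these ratios passed the 2-fold limit. The small ratio of *Ftl1* in macrophage-like cells turned its sign, to 0.08, with the mean of each cell's CPM. Within macrophage-like clusters *Ftl1* was higher on Day 14 in 6 of 7 and *Fth1* in 4 of 7, so the sign over the class was not that of most clusters for either chain, and within fibroblast-like clusters both were higher in 6 of 6.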

How the results depend on the processing

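No paired analysis was possible because each day was 1 library and the results come from no test. Counts of members past the limit changed as follows in macrophage-like and fibroblast-like cells. In macrophage-like cells from Day 3 to Day 7 the count of 1 became 3 with scaling without *Gm42418*, without the 50 most abundant genes or by the median of ratios, 4 at a 1.5-fold limit and 2 when each cell was classed without clusters. In macrophage-like cells from Day 7 to Day 14 the count of 2 became 1 with the full doublet rate removed and 3 at a 1.5-fold limit. From Day 3 to Day 14 in these cells the count of 2, with 1 in each direction, became 3 at a 1.5-fold limit, by the median of ratios or without the 50 most abundant genes, 4 with a 10 CPM minimum or none, and 1 with each library clustered alone. In fibroblast-like cells from Day 3 to Day 7 the count of 2 members became 3 with a 10 CPM minimum and 5 with no CPM minimum. From Day 3 to Day 14 in these cells the count of 2 became 4 at a 1.5-fold limit, with a 10 CPM minimum or with none, and 3 with the full doublet rate removed. In fibroblast-like cells from Day 7 to Day 14 the count of 0 became 1 at a 1.5-fold limit, with no CPM minimum or with no doublets removed. The counts of macrophage-like over fibroblast-like cells stayed within 1.5 times of the value given under every alternative, and no called ratio turned its sign. Over all members and classes, 1670 alternative log2 ratios moved by less than their counting interval and 562 moved further. Of the alternative ratios of *Fth1* to *Ftl1* UMIs, 24 counted as moved and 10 as the same, and of the shares of cells 101 and 52. The ferritin ratios therefore depend on the processing by more than their intervals show. The log2 ratio of *Hmox1* from Day 7 to Day 14 in macrophage-like cells ran from -1.93 to -1.13. The cause of these changes was not tested. Leaving out cluster 11 or cluster 17 was chosen after seeing the data. Several members rested on few UMIs on Day 3. *Slc40a1* and *Slc11a1* had 21 and 18 in fibroblast-like cells, although these cells were deep. *Blvra*, *Slc48a1* and *Blvrb* had 3, 5 and 12 in neutrophil-like cells.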

Other observations

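Several further genes of iron and oxidant handling were measured in neutrophil-like cells on Days 3 and 7. *Slc7a11*, the cystine importer that feeds glutathione synthesis, was 3364 and 1909 CPM. *Fbxl5* was 770.2 and 568 CPM, *Lcn2*, the siderophore-binding lipocalin 2, 498 and 299 CPM, and *Hp* 277 and 326 CPM. *Steap4* was 170.1 and 28.0 CPM, and *Maff* 390 and 148 CPM.

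*Erfe*, erythroferrone, a hormone that lowers hepcidin and so raises iron release from stores, was among the leading genes of cluster 18, which held most of the fibroblast-like cells of Day 3. It was chosen after its values were seen. It was 53.1, 2.37 and 0.222 CPM in fibroblast-like cells on Days 3, 7 and 14, where *Tfrc* was 26.9, 4.66 and 3.36 CPM.

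Over all cells of a library *Hmox1* was 681, 503 and 135.5 CPM on Days 3, 7 and 14, and *Blvrb* 49.4, 85.0 and 103 CPM. Macrophage-like cells were 2711 of 4360, 9452 of 19590 and 3223 of 13510 cells, a share that went down as the *Hmox1* total did, while the *Blvrb* total went up.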
